A study of Homo sapiens with 9 samples.

Results

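The calcineurin and NFAT genes were followed in HCT116 colon cancer cells that had been induced to express TIG1, through all probe sets annotated to 10 genes on the HG-U133 Plus 2.0 array: the calcineurin subunits PPP3CA, PPP3CB, PPP3CC and PPP3R1, the NFAT factors NFATC1, NFATC2, NFATC3, NFATC4 and NFAT5, and the calcineurin inhibitor RCAN1. The annotation gives 36 probe sets of these genes among 54675 on the array, and 10 genes among 19775. Total RNA was taken from TIG1A stable cells, TIG1B stable cells and control stable cells, with 3 arrays each. Every group is 1 clone of HCT116, a human colon carcinoma line, that carries the pSwitch and pGene/V5 plasmids of the GeneSwitch system, with the TIG1A isoform, the TIG1B isoform or no induced protein, and all 9 cultures, controls included, had received mifepristone (MFP) for 24 h, at 5 nM by the sample labels but at 5 micromolar by the description of the series. The replicates are separate cultures of these clones, so p-values measure the spread between cultures, and the induced isoform cannot be told apart from other differences between the clones.

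Calcineurin is a phosphatase that calcium switches on. It consists of a catalytic subunit (PPP3CA, PPP3CB or PPP3CC) and a regulatory, calcium-binding subunit (PPP3R1), removes phosphates from NFATC1 to NFATC4 and thereby lets these transcription factors enter the nucleus, best known from T-cell activation, while RCAN1 binds the enzyme and restrains it. NFAT5 shares the DNA-binding fold but not the calcineurin docking region and is known for the response to hypertonic stress.

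The deposited values are signal intensities, 1 per probe set and array, which the authors scaled to a common target, and the mean without the extremes was 499.9 on every array. Probe sets entered the tests if 1 of the groups had 2 or more arrays with a signal at or over the array's median, which was 59.9 to 73.9. Of the members, 29 of 36 probe sets were kept in this way, and no member was without one. RARRES1, the gene of TIG1, was at least 876-fold and 547-fold higher in TIG1A and TIG1B cells than in control cells on its brightest probe set, where these bounds, like all bounds here, compare the bright group with the array medians in place of a signal below them. Of 10 colon epithelial markers, 5 (EPCAM, CDH1, KRT8, KRT18 and KRT19) lay above the median on all 9 arrays, whereas CDX1 did not pass the filter. KRT20, VIL1, CDX2 and LGALS4 passed the filter on 1 probe set each, which lay at or above the median on 4, 3, 8 and 6 of the 9 arrays. None of the 7 T-cell and leukocyte markers analysed lay above the median on all 9 arrays. CD3E and CD2 passed the filter near the medians, with 35.5 to 79.5 and 7.87 to 89.4 over the 9 arrays, whereas PTPRC, CD3D, CD3G, CD4 and CD8A were not kept. The summed signal of 8 fibroblast and endothelial markers was 1537 to 1951 in TIG1A cells, 1112 to 1200 in TIG1B cells and 749 to 1241 in control cells, mostly through 1 probe set of COL1A1, while COL1A2, COL3A1, PDGFRB, DCN, VWF and CDH5 were not kept. The part of this difference in the results below was not tested. PECAM1 also had a kept probe set, and COL1A1 and PECAM1 were the 2 genes of this list at or above the median on all 9 arrays.

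Of the 10 genes, 3 rose in TIG1A cells: PPP3CC, NFATC1 and NFAT5, each on 1 probe set and by 1.73-fold to 1.98-fold. Tests were made by limma (moderated test) on log2 intensities of all 29977 kept probe sets with Benjamini-Hochberg adjustment at 0.05, and 3 of the 29 member probe sets (10.3%) rose against control cells, where 2.86% of all kept probe sets did. None fell, against 3.20% of all. At an unadjusted p under 0.05, 15 of the 29 differed (51.7%, against 25% of all). The members and lists were chosen with earlier results of these data known. The NFATC1 call is also on a probe set of the study's own table, chosen on these arrays. The shares here and below are therefore descriptions and no independent evidence about the set. The median log2 fold change was 0.21 over the members and -0.044 over all kept probe sets. Centring each array on its median moved the median over all kept probe sets to 0.12 and that of the members to 0.38. The groups did not overlap, with TIG1A higher, for 8 member probe sets (27.6%, against 13.9% of all) and with TIG1A lower for 4 (13.8%, against 16.9% of all). Of the 29, 213950_s_at of PPP3CC and 215254_at of RCAN1 were kept through TIG1A cells alone. Also, 32540_at of PPP3CC, 210161_at of NFATC1, 228442_at of NFATC2 and 213345_at of NFATC4 were kept through both TIG1 lines but not control cells. Among these, 213950_s_at is in the 8 and the 15, and 210161_at and 228442_at are in the 15. Those counts and shares thus include probe sets that entered only through TIG1 lines, where they were brighter, and no support is drawn from these. All others in the 8 and the 15 were kept through all 3 groups. The 3 calls depended on single arrays. With 1 array left out, the count was 8, 1 and 1 without control 1, 2 and 3, it was 2, 0 and 0 without TIG1A 1, 2 and 3, and it was 3, 2 and 2 without TIG1B 1, 2 and 3. It was also 0 when only the 6 arrays of the comparison were fitted or when no filter was set.

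In TIG1B cells no member probe set passed against control cells in either direction by limma, where 0.701% of all kept probe sets rose and 1.08% fell. At an unadjusted p under 0.05 there were 7 of 29 (24.1%, against 18.5% of all), and the methods' t-test gave 0 after adjustment. The median log2 fold change was 0.12 over the members and -0.030 over all, and after median centring 0.27 and 0.12. Both groups were apart, with TIG1B higher, for 5 member probe sets (17.2%, against 10.8% of all) and with TIG1B lower for 2 (6.9%, against 14.0% of all). Of the 5, 210161_at of NFATC1 and 213345_at of NFATC4 were kept through the TIG1 lines and not through control cells. The first is also among the 7, as is 228442_at of NFATC2, kept in the same way. The counts of 5 and 7 and their shares thus include probe sets that entered only through the TIG1 lines, and no support is drawn from these. All others in the 5 and the 7 were kept through all 3 groups. Without control 1 a single probe set, of RCAN1, passed. Between TIG1A and TIG1B cells no member differed either, where 0.417% of all kept probe sets did, so a call in TIG1A cells alone does not show that the lines differ. At an unadjusted p under 0.05 there were 3 of 29 (10.3%, against 13.3% of all), and the methods' t-test again gave 0 after adjustment. Both comparisons with control share the same 3 control arrays.

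**Figure D1:**
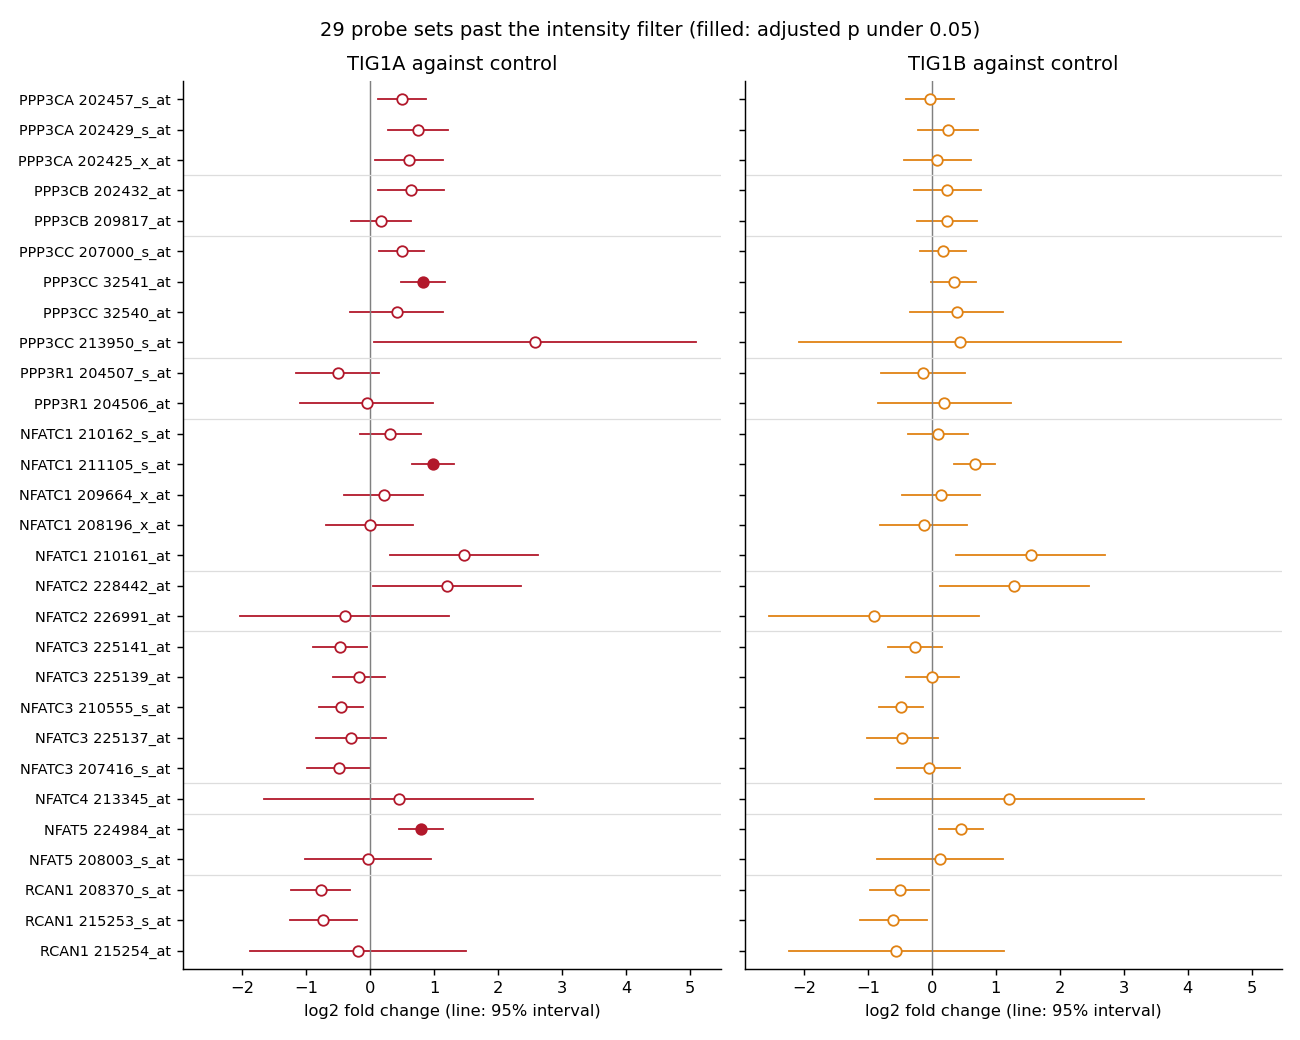
Log2 fold change (horizontal axis) of the 29 kept probe sets (rows, grouped by gene) in TIG1A cells (left) and TIG1B cells (right) against control cells; lines are 95% intervals and filled points passed an adjusted p of 0.05 in limma. Filled points are seen only in the left panel, for PPP3CC, NFATC1 and NFAT5, and all 5 rows of NFATC3 lie left of 0 there.

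PPP3CA encodes the alpha catalytic subunit, the main form in many tissues, and lies on chromosome 4 (101023418 to 101347526 of GRCh38.p14). All 3 of its probe sets had the higher signal in TIG1A cells without overlap with control cells, but none passed the test. On its brightest probe set, 202457_s_at, the intensities were 8232, 8834 and 8735 in TIG1A cells, 5612, 6058 and 6343 in TIG1B cells, and 7382, 6161 and 5048 in control cells. The TIG1A arrays thus lay above all others, and control 1 was the highest of the controls. The log2 difference to control was 0.49 in TIG1A cells (95% interval 0.11 to 0.87, adjusted p = 0.114 from limma) and -0.03 in TIG1B cells, which becomes 0.12 after median centring. The probe sets 202429_s_at and 202425_x_at differed by 0.75 (adjusted p = 0.0685) and 0.61 (adjusted p = 0.152) in TIG1A cells, and by 0.25 and 0.09 in TIG1B cells (adjusted p = 0.545 and 0.872). Without control 1, 202429_s_at and 202457_s_at passed in TIG1A cells, by 0.97 (adjusted p = 0.0133) and 0.62 (adjusted p = 0.041).

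A further probe set, 229606_at, is listed for PPP3CA by the study. It was chosen there on these same arrays, has no gene in the annotation used and is therefore not counted among the 36. Its intensities were 8657, 8405 and 11344 in TIG1A cells, 5177, 4926 and 5029 in TIG1B cells, and 4819, 4317 and 3183 in control cells. It rose in TIG1A cells by 1.21 on the log2 scale (standard error 0.19, adjusted p = 0.0187 from limma). In TIG1B cells the difference was 0.32 (adjusted p = 0.427), although its 3 arrays also lay above the controls, and between the lines it was 0.90 (adjusted p = 0.120). The call was lost without control 2, TIG1A 2 or TIG1A 3 (adjusted p = 0.0546, 0.0546 and 0.0599).

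PPP3CB, the beta catalytic subunit, did not pass on either of its probe sets. On 202432_at the intensities were 2194, 3014 and 3214 in TIG1A cells, 1808, 2017 and 2573 in TIG1B cells, and 2223, 1626 and 1571 in control cells, so TIG1A 1 was below the highest control array. The log2 difference was 0.63 in TIG1A cells (95% interval 0.11 to 1.16, adjusted p = 0.133) and 0.24 in TIG1B cells (adjusted p = 0.607). On 209817_at the differences were 0.17 and 0.24, with overlapping groups.

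PPP3CC encodes the gamma catalytic subunit, best known from testis, and lies on chromosome 8. It rose in TIG1A cells on 32541_at. The intensities were 1126, 1248 and 1180 in TIG1A cells, 802, 955 and 785 in TIG1B cells, and 752, 586 and 675 in control cells. The 3 groups were ordered without any overlap. The rise in TIG1A cells was 1.77-fold, or 0.83 on the log2 scale (standard error 0.15, adjusted p = 0.0254 from limma), while the log2 difference was 0.34 in TIG1B cells (adjusted p = 0.278) and 0.49 between the lines (adjusted p = 0.236). The call was lost without control 2, control 3 or any single TIG1A array (adjusted p = 0.0512 to 0.0871). The next probe set, 207000_s_at, had 1135, 1099 and 1153 in TIG1A cells, 894, 946 and 886 in TIG1B cells, and 988, 709 and 744 in control cells, a log2 difference of 0.49 in TIG1A cells that did not pass (adjusted p = 0.101). On the dim 213950_s_at, the TIG1A arrays gave 122, 104 and 103, the TIG1B arrays 11.6, 55.5 and 23.6, and the control arrays 96.5, 17.5 and 3.61. Its log2 difference of 2.58 had a 95% interval of 0.06 to 5.10 (adjusted p = 0.191), and its control arrays differed among themselves far more than the TIG1A arrays did. The probe set 32540_at overlapped between the groups (log2 difference 0.41), and 209697_at was not kept.

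PPP3R1, the regulatory B subunit, was the only calcineurin subunit whose brightest probe set had a lower mean in TIG1A cells. On 204507_s_at the intensities were 531, 397 and 316 in TIG1A cells, 611, 442 and 538 in TIG1B cells, and 404, 680 and 703 in control cells, with control 1 inside the range of TIG1A. The log2 difference was -0.51 in TIG1A cells (95% interval -1.17 to 0.14, adjusted p = 0.299) and -0.14 in TIG1B cells (0.01 after median centring). The other probe set, 204506_at, had a difference of -0.06 (0.11 after median centring) and a standard error of 0.45. No change of PPP3R1 was thus detected on either probe set, and what size of change these arrays could detect was not tested. As in all such bulk RNA, less RNA per cell and fewer expressing cells cannot be told apart.

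**Figure D2:**
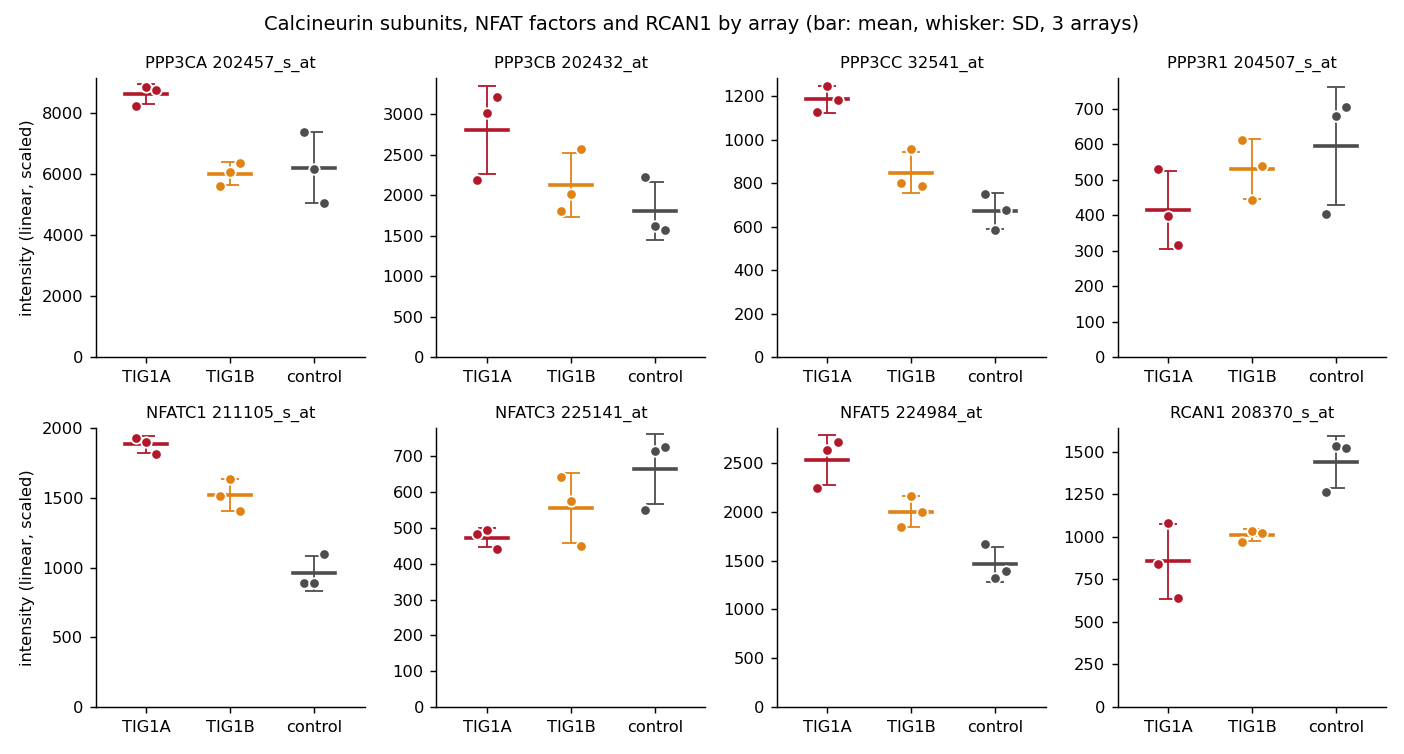
Signal intensity (vertical axis, linear and scaled by the authors) of 8 members in TIG1A, TIG1B and control cells; points are arrays, bars the means and whiskers the SD over 3 arrays. The probe set that passed is shown for PPP3CC, NFATC1 and NFAT5 and the brightest kept one otherwise; the 3 groups do not overlap for these 3 genes, and for RCAN1 all arrays of both TIG1 lines lie below the control arrays.

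NFATC1, the NFAT factor first cloned from T cells, lies on chromosome 18 (79395930 to 79529323 of GRCh38.p14) and had the largest rise among the members that passed. On 211105_s_at the intensities were 1934, 1904 and 1817 in TIG1A cells, 1514, 1637 and 1408 in TIG1B cells, and 889, 887 and 1101 in control cells. Every TIG1A array was above every TIG1B array, and these were above every control array. The rise was 1.98-fold in TIG1A cells, 0.98 on the log2 scale (standard error 0.14, adjusted p = 0.0144 from limma), and it was lost without TIG1A 2 or TIG1A 3 (adjusted p = 0.0552 and 0.0510). TIG1B cells had 1.59 times the control signal, a log2 difference of 0.67 that missed the threshold (95% interval 0.35 to 0.99, adjusted p = 0.0610). The lines differed by 0.31 (95% interval -0.01 to 0.64, adjusted p = 0.393). This probe set stands in the study's own table, chosen on these arrays, so its call is not independent evidence.

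The other 4 probe sets of NFATC1 did not pass in either line. The brightest, 210162_s_at, had 1841, 2035 and 1988 in TIG1A cells, 1414, 1827 and 1822 in TIG1B cells, and 2072, 1293 and 1452 in control cells, where control 1 exceeded all arrays of both lines. Its log2 difference was 0.31 in TIG1A cells (adjusted p = 0.381) and 0.09 in TIG1B cells. On 209664_x_at the differences were 0.21 and 0.14. On 208196_x_at they were -0.01 and -0.13, both above 0 after median centring. The dim 210161_at had 142, 67.9 and 47.3 in TIG1A cells, 80.8, 75.6 and 89.2 in TIG1B cells, and 17.0, 23.6 and 54.4 in control cells, which lay below the median on all arrays. It was at least 1.08-fold and 1.14-fold higher in TIG1A and TIG1B cells, without passing (adjusted p = 0.124 and 0.161). Probe sets that carry the suffix x share probe sequences with other transcripts, and how the 5 probe sets divide among the NFATC1 isoforms was not analysed here.

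**Figure D3:**
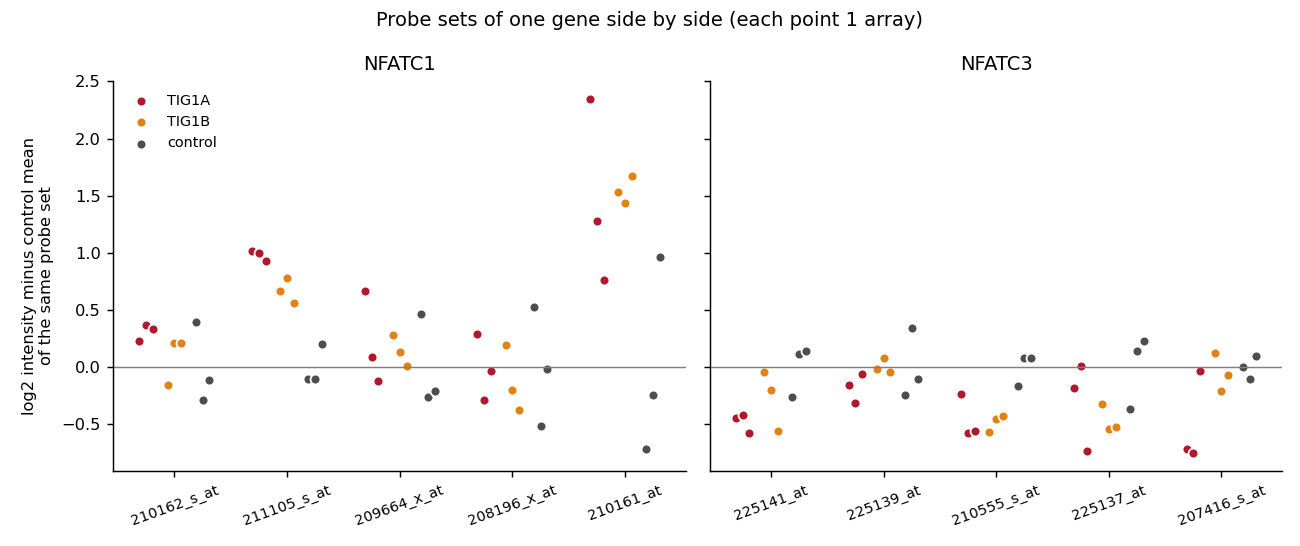
Log2 intensity minus the mean of the control arrays of the same probe set (vertical axis) for the 5 kept probe sets each of NFATC1 and NFATC3 (horizontal axis); every point is 1 array of TIG1A, TIG1B or control cells. Of the NFATC1 probe sets only 211105_s_at has all 3 groups apart, and for NFATC3 both lines lie below all controls on 210555_s_at.

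NFATC1 has 2 annotated starts in RefSeq (GRCh38.p14), and NFAT factors bind the core GGAAA, so the 250 bases before each start are shown with every GGAAA, or TTTCC on the other strand, in capitals. Both lie on the plus strand, at chr18:79395680-79395929 for the upstream and chr18:79400049-79400298 for the downstream start.
NFATC1 upstream start: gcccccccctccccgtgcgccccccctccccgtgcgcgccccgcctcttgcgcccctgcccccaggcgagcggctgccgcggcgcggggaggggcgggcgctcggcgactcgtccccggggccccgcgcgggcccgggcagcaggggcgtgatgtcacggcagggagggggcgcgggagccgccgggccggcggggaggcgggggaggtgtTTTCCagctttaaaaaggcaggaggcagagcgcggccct
NFATC1 downstream start: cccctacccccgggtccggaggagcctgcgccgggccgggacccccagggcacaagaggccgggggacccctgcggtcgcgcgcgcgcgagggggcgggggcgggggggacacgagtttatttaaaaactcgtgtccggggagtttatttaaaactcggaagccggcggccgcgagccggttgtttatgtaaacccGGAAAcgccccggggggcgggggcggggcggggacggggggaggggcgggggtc
Each window held 1 match, 39 and 54 bases before the start, and 55.6% of 35116 windows of the same length before annotated human starts held at least 1, so a single match is common.

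NFATC2, the factor prevalent in resting T cells, was dim. On 228442_at the intensities were 89.0, 166 and 161 in TIG1A cells, 151, 195 and 97.5 in TIG1B cells, and 54.9, 115 and 31.1 in control cells. Both lines overlapped the controls, with log2 differences of 1.20 and 1.29 that did not pass (adjusted p = 0.188 and 0.229). On 226991_at the differences were -0.40 and -0.91 with a standard error of 0.71, and 231801_at and 224542_s_at were not kept.

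NFATC3, a factor also expressed outside the immune system, had a lower mean on all 5 kept probe sets in TIG1A cells, by -0.18 to -0.50 on the log2 scale and under every scaling tried, but none passed. On the brightest, 225141_at, the intensities were 484, 493 and 443 in TIG1A cells, 642, 575 and 449 in TIG1B cells, and 551, 715 and 728 in control cells. The log2 difference was -0.48 in TIG1A cells (adjusted p = 0.154) and -0.26 in TIG1B cells (adjusted p = 0.481). On 210555_s_at the arrays gave 517, 406 and 412 in TIG1A cells, 409, 442 and 453 in TIG1B cells, and 542, 642 and 642 in control cells. Both lines lay below all controls there, by -0.46 and -0.48 (95% intervals -0.80 to -0.11 and -0.83 to -0.13, adjusted p = 0.111 and 0.148). The probe sets 225139_at, 225137_at and 207416_s_at overlapped with control in both lines, and 210556_at was not kept.

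NFATC4 was measured by 1 kept probe set, 213345_at, with 13.5, 96.6 and 151 in TIG1A cells, 106, 102 and 90.0 in TIG1B cells, and 17.2, 76.4 and 60.0 in control cells. The TIG1A arrays spanned both sides of the control range, and the differences of 0.44 and 1.21 had a standard error of 0.91. The probe sets 236270_at and 205897_at were not kept.

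NFAT5 lies on chromosome 16 (69565966 to 69704654 of GRCh38.p14) and rose in TIG1A cells on 224984_at. The intensities were 2245, 2634 and 2717 in TIG1A cells, 1850, 2162 and 1999 in TIG1B cells, and 1666, 1326 and 1399 in control cells, so the groups did not overlap. The rise was 1.73-fold, 0.79 on the log2 scale (standard error 0.15, adjusted p = 0.0291 from limma). In TIG1B cells the log2 difference was 0.46 (95% interval 0.11 to 0.80, adjusted p = 0.165), and between the lines it was 0.34 (adjusted p = 0.394). The call was lost without control 2, control 3, TIG1A 2, TIG1A 3, TIG1B 2 or TIG1B 3 (adjusted p = 0.0523 to 0.0935). The dim probe set 208003_s_at had a difference of -0.04 in TIG1A cells (0.13 after median centring) with a standard error of 0.43, and 215092_s_at was not kept.

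RCAN1, the inhibitor of calcineurin on chromosome 21 (34516442 to 34615113 of GRCh38.p14), had lower means on all 3 probe sets in both lines, and none passed. On 208370_s_at the intensities were 844, 1082 and 643 in TIG1A cells, 972, 1038 and 1023 in TIG1B cells, and 1263, 1533 and 1523 in control cells. All 6 arrays of the lines lay below the controls. The log2 difference was -0.78 in TIG1A cells (95% interval -1.24 to -0.31, adjusted p = 0.0624 from limma) and -0.51 in TIG1B cells (95% interval -0.97 to -0.04, adjusted p = 0.237). On 215253_s_at the intensities were 311, 317 and 260 in TIG1A cells, 362, 278 and 338 in TIG1B cells, and 355, 567 and 590 in control cells. Its log2 differences were -0.74 (adjusted p = 0.0938) and -0.60 (adjusted p = 0.214), and without control 1 both passed. The dim 215254_at overlapped between all groups.

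RCAN1 has 6 annotated starts in RefSeq. The promoter of its short transcript, which begins inside the gene, is known as a target of NFAT. Several of the annotated starts lie inside the gene, and which of them belongs to the short transcript was not analysed here. The window shown (minus strand, chr21:34526823-34527072) lies before 1 of these starts and was picked for its matches, again with GGAAA and TTTCC in capitals.
RCAN1 internal start: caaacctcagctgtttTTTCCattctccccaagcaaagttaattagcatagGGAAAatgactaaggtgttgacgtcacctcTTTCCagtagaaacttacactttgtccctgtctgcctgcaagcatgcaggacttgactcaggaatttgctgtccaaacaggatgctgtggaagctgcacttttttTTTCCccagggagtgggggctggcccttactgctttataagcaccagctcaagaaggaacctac
This window held 4 matches, 1 as GGAAA and 3 as TTTCC, where 1.87% of all 35116 windows held 4 or more, and the windows before the other 5 starts held none. Which start the RCAN1 probe sets report was not analysed here. Among the other members in the promoter table, NFATC2 had 3 matches before 1 of its starts, and PPP3R1 and NFATC4 had 1. PPP3CA, PPP3CB, PPP3CC and NFAT5 are not in that table.

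Around the enzyme, 8 lists with 64 genes of the pathway were followed, of which 45 genes had a kept probe set (122 probe sets). In TIG1A cells 2 of the 122 rose (1.64%, against 2.86% of all kept probe sets) and 8 fell (6.56%, against 3.20% of all), for 2 and 7 genes. In TIG1B cells 1 rose (0.82%, against 0.701% of all) and 5 fell (4.1%, against 1.08% of all), for 1 and 4 genes. One fall in each line, of CRTC1, was on a probe set kept through the control cells alone, and 7 and 4 falls were on the others. Of these 4, the fall of TFEB was on a probe set kept through control and TIG1A cells but not TIG1B cells. Between the lines 2 of the 122, for 2 genes, were higher in TIG1A cells (1.64%, against 0.417% of all in either direction). The higher signal of TFEB was on that same probe set. Over the 122, the median log2 fold change of TIG1A cells was -0.037 (-0.044 over all kept probe sets), and that of TIG1B cells was -0.071 (-0.030 over all). The 10 calls in TIG1A cells became 23, 0 and 5 without control 1, 2 and 3, became 2, 0 and 1 without TIG1A 1, 2 and 3, and became 8, 4 and 5 without TIG1B 1, 2 and 3. The 6 calls in TIG1B cells became 11, 1 and 2 without control 1, 2 and 3, became 3, 2 and 2 without TIG1A 1, 2 and 3, and became 1, 1 and 1 without TIG1B 1, 2 and 3. After median centring 6 rose and 2 fell in TIG1A cells, and 1 rose and 1 fell in TIG1B cells.

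Among 10 further inhibitors, anchors and immunophilins, 7 were kept, of which 3 fell in TIG1A cells and 1 in TIG1B cells. These were 4 and 2 of 19 probe sets (21.1% and 10.5%, where 3.20% and 1.08% of all kept probe sets fell). CABIN1, a nuclear protein that binds and inhibits calcineurin, fell in both lines on both probe sets. On 37652_at the intensities were 346, 363 and 290 in TIG1A cells, 329, 370 and 282 in TIG1B cells, and 738, 527 and 655 in control cells, a fall by 0.94 (adjusted p = 0.0309 from limma) and 0.96 (adjusted p = 0.0471) on the log2 scale. On 202624_s_at the arrays gave 252, 256 and 249 in TIG1A cells, 170, 231 and 274 in TIG1B cells, and 452, 451 and 419 in control cells. Both lines fell, by 0.80 (adjusted p = 0.0452) and 1.00 (adjusted p = 0.0437), and the difference between the lines was 0.19 (95% interval -0.23 to 0.61). FKBP1A, the receptor of the calcineurin-blocking drug tacrolimus, had 7540, 7122 and 7407 in TIG1A cells, 7025, 6150 and 8233 in TIG1B cells, and 11540, 11782 and 11691 in control cells on 200709_at. It fell in TIG1A cells by 0.67 (adjusted p = 0.0367), and the difference in TIG1B cells was -0.72 (adjusted p = 0.0508), while its other 3 probe sets did not pass. AKAP1, an anchor protein at mitochondria, fell by 0.75 in TIG1A cells on 201675_at (adjusted p = 0.0411), with a difference of -0.46 in TIG1B cells (adjusted p = 0.196). The calls of CABIN1, FKBP1A and AKAP1 were lost after median centring, which leaves their direction.

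Of 11 genes of calcium entry and release, all were kept and 2 fell, on 2 of 27 probe sets in TIG1A cells (7.41%, against 3.20% of all) and 1 of 27 in TIG1B cells (3.7%, against 1.08%). STIM1, the calcium sensor of the endoplasmic reticulum, had 154, 128 and 154 in TIG1A cells, 113, 163 and 141 in TIG1B cells, and 264, 323 and 283 in control cells on 202764_at. It fell in both lines, by 1.00 (adjusted p = 0.0244 from limma) and 1.07 (adjusted p = 0.0350) on the log2 scale. PLCG1, a phospholipase that releases calcium-mobilising inositol phosphate, had 226, 210 and 222 in TIG1A cells, 228, 266 and 280 in TIG1B cells, and 359, 388 and 328 in control cells on 216551_x_at, a fall by 0.71 in TIG1A cells (adjusted p = 0.0305). Its other kept probe set, 202789_at, differed by -0.25 in TIG1A cells (adjusted p = 0.444) and 0.03 in TIG1B cells, with overlapping groups. In TIG1A cells the 27 probe sets of this list had a median log2 fold change of -0.50 (-0.044 over all kept probe sets). In TIG1B cells it was -0.28 (-0.030 over all). Included are 218812_s_at and 230347_at of ORAI2, kept through control cells alone. Also included are 231406_at of ORAI2 and 203710_at and 216944_s_at of ITPR1, not kept through TIG1A cells, and 217529_at of ORAI2, not kept through TIG1B cells. The medians are therefore no support. The kept probe sets of ORAI3, ITPR2 and PLCG2 had higher means in TIG1A cells. Of 8 NFAT kinases, which return NFAT to the cytoplasm, 7 were kept and 1 fell in TIG1A cells, on 1 of 29 probe sets (3.45%, against 3.20% of all). That was GSK3A on 202210_x_at, with 110, 80.3 and 53.6 in TIG1A cells, 62.3, 174 and 158 in TIG1B cells, and 390, 308 and 496 in control cells (log2 difference -2.32, adjusted p = 0.0284). In TIG1B cells the difference was -1.71 (adjusted p = 0.0981 from limma). Its brighter probe set, 632_at, differed less, by -0.74 in TIG1A cells and -0.73 in TIG1B cells, and did not pass (adjusted p = 0.0515 and 0.0876). The calls of STIM1 and PLCG1 were lost after median centring, and that of GSK3A was not.

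Of 13 NFAT target genes known from activated cells, 4 were kept (CXCL8, EGR3, VEGFA and NR4A1), and none of their 9 probe sets passed in either line by limma or by the adjusted methods' t-test. At an unadjusted p under 0.05 there were 0 of 9 in TIG1A cells (against 25% of all) and 2 of 9 in TIG1B cells (22.2%, against 18.5% of all). IL2, IL4, IFNG, TNF, FASLG, PTGS2 and ADAMTS1 were not kept. Of 8 NFAT5 targets of osmotic stress, 6 were kept, of which 2 rose in TIG1A cells and 1 in TIG1B cells. These were 2 and 1 of 15 probe sets (13.3% and 6.67%, where 2.86% and 0.701% of all kept probe sets rose). SGK1, a kinase induced by osmotic and hormonal stress, had 1791, 1803 and 1621 in TIG1A cells, 2088, 2426 and 2245 in TIG1B cells, and 1046, 902 and 1202 in control cells on 201739_at. It rose in both lines, by 0.74 (adjusted p = 0.0339 from limma) and 1.11 (adjusted p = 0.0218) on the log2 scale. S100A4, a small calcium-binding protein, had 1760, 1525 and 1389 in TIG1A cells, 374, 340 and 343 in TIG1B cells, and 713, 355 and 292 in control cells on 203186_s_at. It rose in TIG1A cells by 1.89 (adjusted p = 0.0198), and TIG1B cells overlapped with the controls (log2 difference -0.26, adjusted p = 0.698). The transporters SLC5A3, SLC6A6 and SLC38A2 and the chaperone gene HSPA4L did not pass.

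Among 10 further substrates of calcineurin, all kept, 1 fell in TIG1A cells and 2 in TIG1B cells, on 1 and 2 of 23 probe sets (4.35% and 8.7%, where 3.20% and 1.08% of all fell). These falls were all on probe sets that passed the filter only through groups where they were bright. The shares therefore do not bear on the list. TFEB, a regulator of lysosomal genes, had 214, 168 and 168 in TIG1A cells, 43.7, 41.9 and 33.1 in TIG1B cells, and 122, 136 and 145 in control cells on 221866_at. TIG1B cells had an at least 2.07-fold lower signal than control cells (adjusted p = 0.0107 from limma), a call that held with each single array left out in turn, and TIG1A cells an at least 2.81-fold higher one than TIG1B cells. Its other probe set, 50221_at, did not pass in any comparison. CRTC1, a coactivator of CREB, was at least 1.71-fold lower in TIG1A cells and 1.69-fold lower in TIG1B cells on 213091_at (adjusted p = 0.0251 and 0.0437), with 14.8, 33.2 and 39.9 in TIG1A cells, 28.3, 31.4 and 24.2 in TIG1B cells, and 116, 87.1 and 130 in control cells. The brighter 207159_x_at of CRTC1 did not pass, with log2 differences of -0.50 and -0.49 (adjusted p = 0.243 and 0.331 from limma). The probe set 213091_at entered the tests only through the control cells, where it was brightest, so its calls do not bear on the list. TFEB 221866_at likewise entered only through control and TIG1A cells, not through TIG1B cells. PPP3R2, RCAN2, AKAP5, HOMER2, DYRK1B and SLC6A12 were not kept. CSF2, EGR2 and AKR1B1 were not analysed here.

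**Figure D4:**
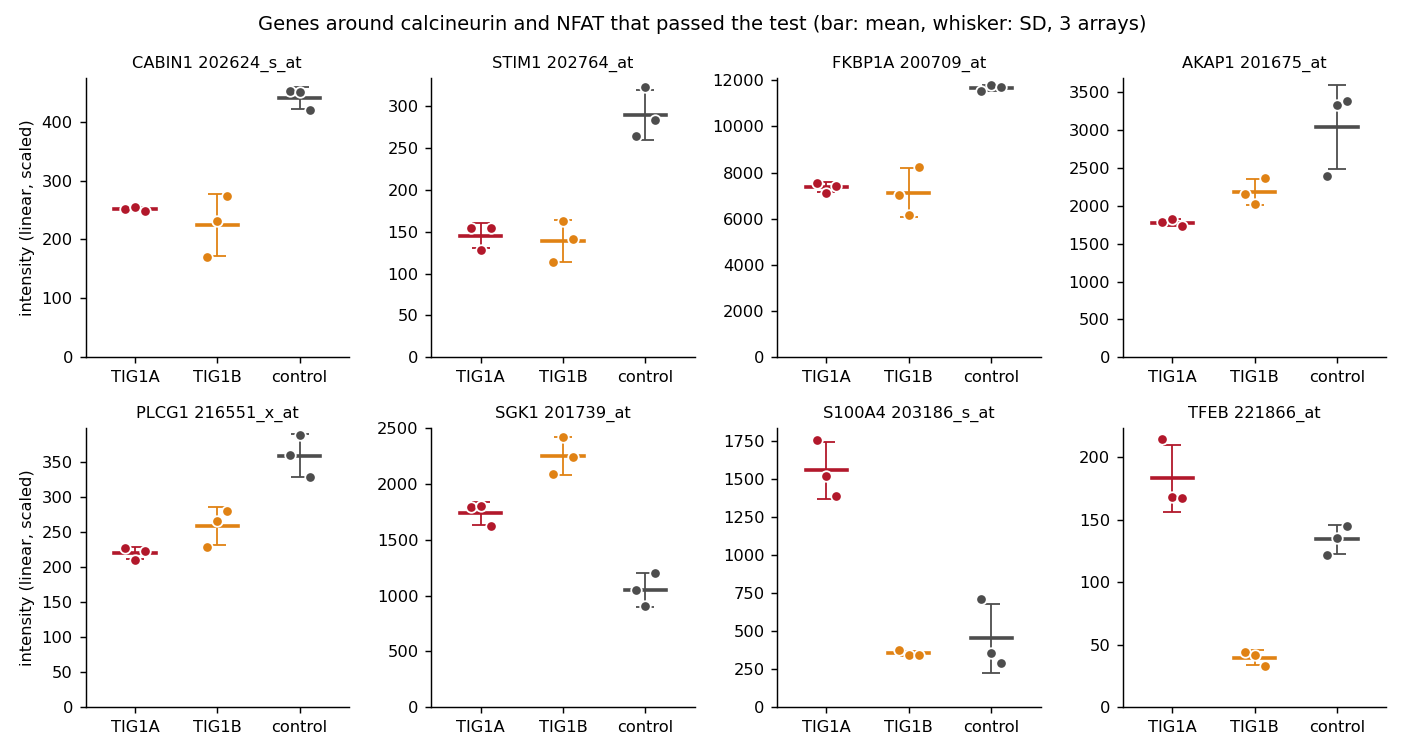
Signal intensity (vertical axis, linear and scaled by the authors) of 8 pathway genes that passed the test in at least 1 comparison, in TIG1A, TIG1B and control cells; points are arrays, bars the means and whiskers the SD over 3 arrays. CABIN1, STIM1 and FKBP1A lie below the control arrays in both lines, SGK1 above them, and S100A4 and TFEB differ between the 2 lines. TFEB is shown on 221866_at, and its other probe set did not pass.

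The probe sets most like each called member over the 9 arrays were named by Pearson's r of log2 intensities, as a description, since all share the same arrays and group differences. For PPP3CC these were VPS13B (r = 0.994), HIVEP1 (r = 0.977) and NCOA1 (r = 0.975). For NFATC1 they were the histone gene H4C11 (r = 0.991), PFKFB3 (r = 0.988), which encodes an enzyme that controls glycolysis, and UBTD2 (r = 0.986). For NFAT5 they were the glycogenin gene GYG1 (r = 0.991), SPIRE1 (r = 0.989), an actin nucleator, and RAB31 (r = 0.987), a small GTPase.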

How the data were processed

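Total RNA of TIG1A, TIG1B and control stable cells was measured on 9 arrays. The authors made the deposited signal intensities with the GeneChip Operating System (GCOS), scaled globally. Values were floored at 1 before log2 transformation. The intensity filter at the 50th percentile stands in for the Present calls of the methods. It left 29977 of 54675 probe sets after 62 controls were set aside. Probe sets were named through the array annotation, updated by gene number (41043 of 41097 with 1 symbol matched). One mean per group was fitted to all 9 arrays with limma 3.58.1 in R 4.3.3 (6 residual degrees of freedom and a median of 1.84 prior ones), with Benjamini-Hochberg adjustment. The number of arrays limits the precision.

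The members and the gene lists were chosen with earlier results of these data known. Members were named on all probe sets, with values per array for those that passed, those of the study's tables and the brightest of each gene. Of each list, up to 4 called genes were named, and for each called member the 3 nearest probe sets. Alternatives were quantile normalization, median centring, an offset of 50, a filter at the 75th percentile, no filter, the 6 arrays of a comparison, a replicate block, trend and robust eBayes, the methods' t-test, and each array left out.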

Additional observations from a re-analysis of the deposited data

Results flagged for a closer look

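S100A4 and TFEB, from the lists around calcineurin, differed between the TIG1 lines, which share the same controls. S100A4 had the higher signal in TIG1A cells, by 2.14 on the log2 scale (standard error 0.31, adjusted p = 0.0403 from limma), with 1558 ± 188 in TIG1A cells, 352 ± 18.9 in TIG1B cells and 453 ± 227 in control cells (SD, n = 3 arrays). The call was lost without control 2 and without any single TIG1A or TIG1B array. TFEB was at least 2.81-fold higher in TIG1A cells (adjusted p = 0.0140 from limma). The fitted log2 difference of 2.21 (standard error 0.17) is not a measured size, since all 3 TIG1B arrays lay below the array medians. The intensities were 183 ± 26.9 in TIG1A cells, 39.6 ± 5.69 in TIG1B cells and 134 ± 11.6 in control cells. All 3 TIG1A arrays were above the controls and all 3 TIG1B arrays below them. Its call was lost without TIG1A 2 and without TIG1B 2. These values are of 221866_at, which passed the filter through TIG1A and control cells but not TIG1B cells. The other probe set of TFEB, 50221_at, overlapped between the lines (log2 difference 0.46, adjusted p = 0.602 from limma).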

How the results depend on the processing

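Log2 fold changes were followed for 44 differences, those that passed and, for members, those with an unadjusted p under 0.05, and none turned its sign in the 18 alternative settings where it had a value. Of all 58 differences of kept members from control, 8 turned their sign under another scaling, 7 of them after median centring and 1 with the offset, and none of the 8 had passed. Of the values of the 44, 538 stayed on their side of the threshold, 217 lost the call and 24 gained one. The 3 member calls in TIG1A cells became 5 with an offset of 50, 10 (of 18) with the filter at the 75th percentile, 7 with trend and robust eBayes, and 0 with no filter, with the 6 arrays alone and with the adjusted methods' t-test. With 1 array left out they ranged from 0 to 8. The 10 pathway calls in TIG1A cells became 18, 17, 20, 0, 0 and 2 in these 6 settings, and 0 to 23 with 1 array left out. In TIG1B cells the 0 member calls became 1 with the offset, 2 with the stricter filter and 1 with trend and robust eBayes, and 0 to 1 with 1 array left out. The 6 pathway calls there became 2 after median centring, 12 with the stricter filter, 11 with trend and robust eBayes, and 0 with no filter, the 6 arrays and the methods' t-test, and 1 to 11 with 1 array left out. Between the lines the member count of 0 stayed 0 in every setting, and the 2 pathway calls became 1 after median centring and with the methods' t-test, 0 with no filter and with the 6 arrays, and 0 to 2 with 1 array left out. Apart from the different numbers of probe sets tested and arrays used, the cause was not tested. The share of all probe sets called in each setting is not given beside these counts. A changed count is therefore no result about the members or the lists. The deviations of same-numbered arrays correlated by -0.0005 to 0.0085 between TIG1A and control and by -0.037 to 0.0082 between TIG1B and control. Between TIG1A and TIG1B the correlations were 0.049 to 0.192. Differently numbered arrays were not compared, so whether the numbers pair cultures was not tested. With the replicate number as a block, the member count in TIG1A cells was 1 (NFATC1) and the pathway count 1, and in TIG1B cells and between the lines both pathway counts were 0. Without adjustment, the methods' t-test gave 11, 5 and 7 of the 29 member probe sets in the 3 comparisons. Among all 29977 kept probe sets it gave 6150, 4594 and 4775.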

Other observations

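Ratios within an array, chosen after the data were seen, are given as values and were not tested; neither PPP3CA nor RCAN1 passed the test by itself. The log2 ratio of PPP3CA (202457_s_at) over RCAN1 (208370_s_at) was 3.29, 3.03 and 3.76 on the TIG1A arrays, 2.53, 2.55 and 2.63 on the TIG1B arrays, and 2.55, 2.01 and 1.73 on the control arrays. The TIG1A arrays lay above all others, and control 1 lay within the TIG1B range. For PPP3CA over PPP3R1 (204507_s_at) the ratio was 3.95, 4.48 and 4.79 in TIG1A cells, 3.20, 3.78 and 3.56 in TIG1B cells, and 4.19, 3.18 and 2.84 in control cells, so both lines overlapped the controls. For NFAT5 (224984_at) over NFATC3 (225141_at) the ratio was 2.21, 2.42 and 2.62 in TIG1A cells, 1.53, 1.91 and 2.15 in TIG1B cells, and 1.60, 0.89 and 0.94 in control cells. Levels of different probe sets cannot be compared, so only differences of a ratio between arrays can be read.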
